A study of Mus musculus with 18 samples.

Results

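Cytosolic ribosomal protein genes were followed in mouse dendritic cells that met lipopolysaccharide (LPS), the bacterial outer membrane component that CD14 passes on to the TLR4 receptor. A gene was taken when a probe set of the array was annotated to it alone and its symbol was Rpl or Rps with a number, or Rpsa, Rplp0, Rplp1 or Rplp2; the ribosomal S6 kinases were left out. The probe set with the highest mean stood for the gene. This gave 49 genes of the 12394 that could be read, namely 22 large subunit proteins, 20 small subunit proteins, 6 diverged copies (Rpl22l1, Rps27l, Rpl3l, Rpl39l, Rps4l and Rpl7l1) and the pseudogene Rps15a-ps6. Of them, 46 passed the filter on low signals and were tested; Rpl3l, Rpl12 and Rps15a-ps6 did not pass it. A further 30 ribosomal protein symbols, among them Rpl3, Rpl5 and Rplp1, stood only on probe sets that list other genes too.

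The ribosome is built from a large and a small subunit, each an RNA core with about one copy of each protein, so the proteins are needed in matched amounts. Their messages are among the most abundant of a growing cell, and most begin with a C followed by a run of pyrimidines, the 5′ terminal oligopyrimidine (TOP) tract, through which mTOR signalling governs their translation. Several proteins are also known outside the ribosome: RPL11 binds MDM2, RPL13A joins a complex that silences inflammatory messages in human monocytes, and RPS3 binds NF-kappaB.

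Dendritic cells in 3 conditions were compared, with 1 array for each time. The Cd14-deficient cells came from Cd14-/- C57BL/6 mice, the EGTA cells from C57BL/6 mice and received LPS together with 2 mM of the calcium chelator EGTA, and the wild type cells came from C57BL/6 mice and received LPS alone; all mice were 6 to 8 weeks old. All marrow was grown for 7 to 10 days with GM-CSF from transduced B16 melanoma cells until more than 90% of cells carried CD11c. Each kind was harvested without LPS, 24 h after plating, and after 2, 4, 6, 12 and 24 h of LPS, stated as 1 µg/ml for both kinds of wild type culture and with no concentration for the Cd14-deficient ones. The labels place EGTA in the unstimulated EGTA culture by its title alone. They do not say that the arrays came from separate animals, so each p-value reflects the scatter of these arrays alone, possibly technical, with the 5 LPS times or the 3 conditions in the place of replicates.

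Levels are quantile-normalised log2(intensity + 16), differences are in log2 units of that scale, and a gene passed a test at an adjusted p under 0.05. Trimmed mean intensities ran from 331 to 472, so as deposited the arrays were on different scales. Itgax, which encodes CD11c, stood between 11.22 and 12.40 on the 18 arrays, and 0 of 5 B cell and 0 of 6 T and NK cell markers rose above an array's median. Flt3, a receptor of dendritic cell precursors, passed the median on 1 array. Of other dendritic cell markers, H2-Ab1, Cd74 and Irf8 passed it on all 18, Cd209a on 6 and Xcr1 on 0. Macrophage markers Adgre1, Csf1r and Cd68 and granulocyte markers S100a8, S100a9 and Lcn2 also passed it on all 18. Cd14 read 4.28 to 5.83 in the Cd14-deficient cells, against 12.79 to 13.28 under LPS in wild type. RNA integrity numbers were lowest in EGTA cultures late in LPS (8.8 at 12 h, 8.7 at 24 h) and 9.3 or more elsewhere. The number of arrays limits the precision.

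Signals of these genes crowded the top of the scale. On at least 9 arrays, 21 genes lay within 1 log2 unit of the brightest signal of the array, and 10 did so on all 18. Rps29, a small subunit protein, came closest to that ceiling, with intensities of 14035 to 16874, on arrays whose brightest signals were 14871 to 17247. Such probe sets leave little room for a rise. At the other end, Rpl12, Rpl14, Rpl27a, Rpl39, Rps25, Rps27 and Rps6 were read from dim probe sets; each also has probe sets that list other genes. Of the 49 probe sets, 14 carry the suffix _x_at, which marks probes that can bind other transcripts.

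The starts of the genes are shown because the TOP tract is the feature these messages are known to share. Of the genes, 42 had a promoter in the RefSeq table of GRCm38.p6. A C followed by at least 4 bases that were each C or T began within 10 bases of the annotated start, on the gene's strand, in 21 of 37 subunit genes (56.8%) and 4 of 5 diverged copies (80.0%), against 30.8% of all 27025 genes of that table. The letters CCGGAAG, which ETS-family factors such as GABP bind, stood on either strand between 250 bases before and 50 after the start in 51.4% of the subunit genes and in 9.12% of all genes. AAGATGG, searched in the same way as the core of the YY1 motif, stood in 13.5% and 6.48%. The 30 bases around the start, 15 on each side and 5′ to 3′, are printed for genes on which the comparisons turn, with the tract in capitals.
Rpl22l1 (chr3:28805493-28805522, plus strand): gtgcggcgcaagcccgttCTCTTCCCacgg
Rpl22 (chr4:152325711-152325740, plus strand): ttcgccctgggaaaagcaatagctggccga
Rps27l (chr9:66946071-66946100, plus strand): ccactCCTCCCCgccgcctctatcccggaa
Rps27 (chr3:90213634-90213663, minus strand): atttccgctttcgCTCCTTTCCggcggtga
Rps6 (chr4:86857353-86857382, minus strand): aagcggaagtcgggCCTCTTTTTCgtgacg
Rps18 (chr17:33955651-33955680, minus strand): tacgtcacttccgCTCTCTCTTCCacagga
Rpl22 held no such tract in its window, whereas its diverged copy Rpl22l1 held one of 8 bases, starting at base 4 of the transcript. A tract is a match of letters near an annotated start, and some lie wholly ahead of it, outside the annotated message. Among the diverged copies, those of Rps27l (from base -10) and Rpl39l (from base -7), each 7 bases long, do so. That of Rpl3l begins at base 10 of the transcript. Medians of the Cd14-deficient difference were 0.21 for 23 tested genes with a tract and 0.24 for 17 without.

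**Figure D1:**
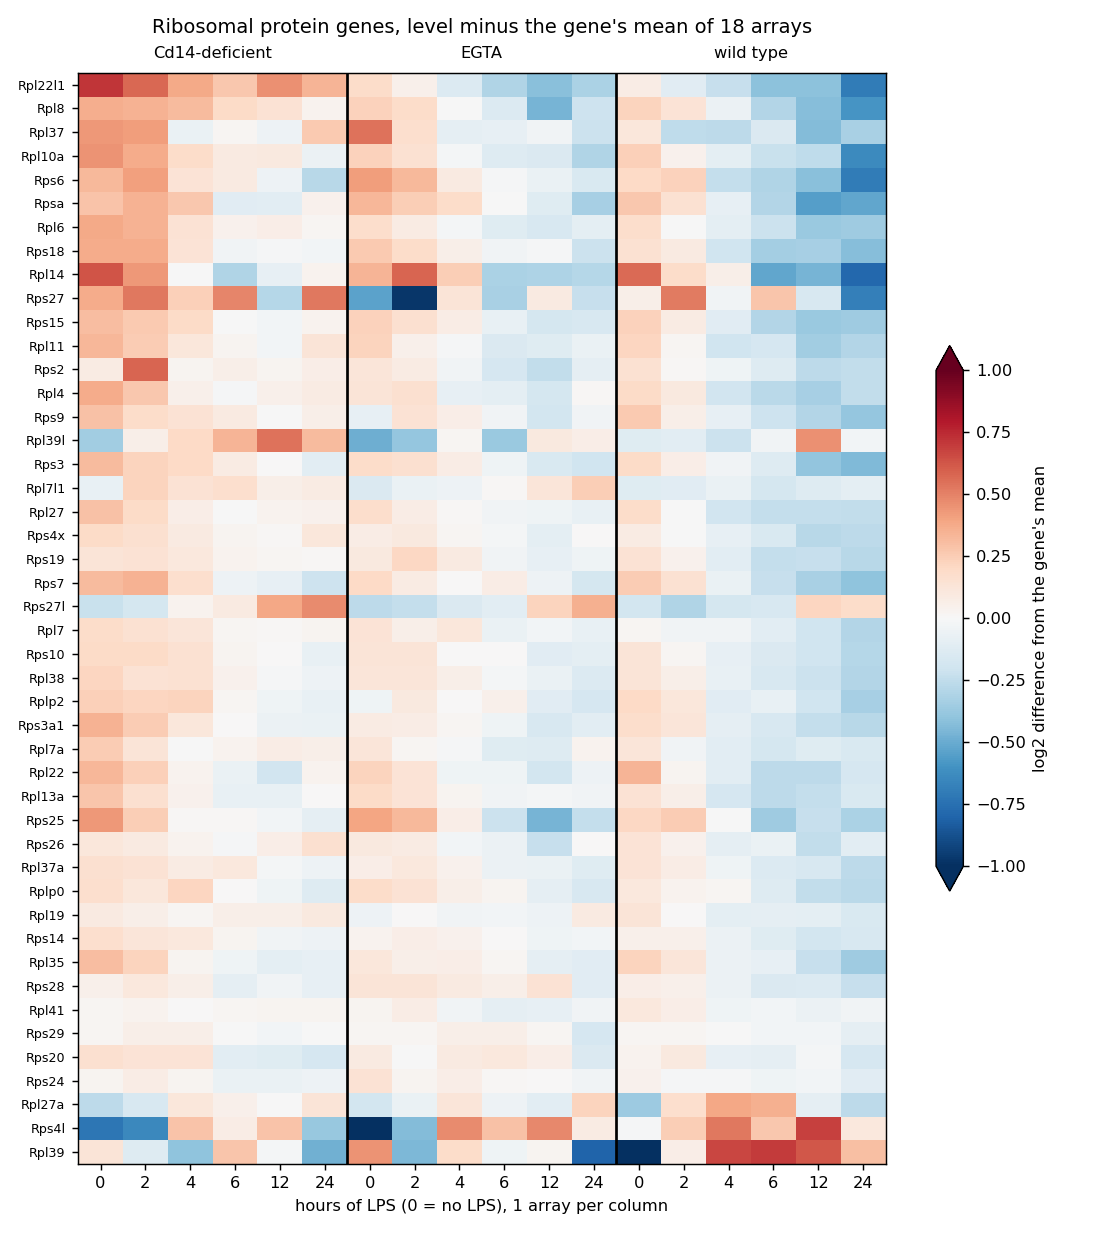
Level of each of the 46 tested genes on each of the 18 arrays minus that gene's mean over the arrays, in log2 units (colour, cut at 1 and -1), with genes ordered by their Cd14-deficient difference under LPS. Most rows pale or turn blue from left to right within a condition, Rps27l and Rpl39l run the other way, and the dim Rpl39, Rps27 and Rps4l are uneven.

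Under LPS, most ribosomal protein messages stood a little higher in Cd14-deficient cells than in wild type. Of the 46 tested genes, 33 were higher and 2 were lower (limma with Benjamini-Hochberg adjustment), while 17.1% of all 6929 tested genes were higher and 12.6% lower. The median difference was 0.20, against 0.04 over all tested genes. Both subunits took part: 16 of 21 large and 14 of 20 small subunit genes were higher, with medians of 0.19 and 0.22. At all 5 LPS times 36 of the 46 were higher, as were 20.9% of all tested genes.

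**Figure D2:**
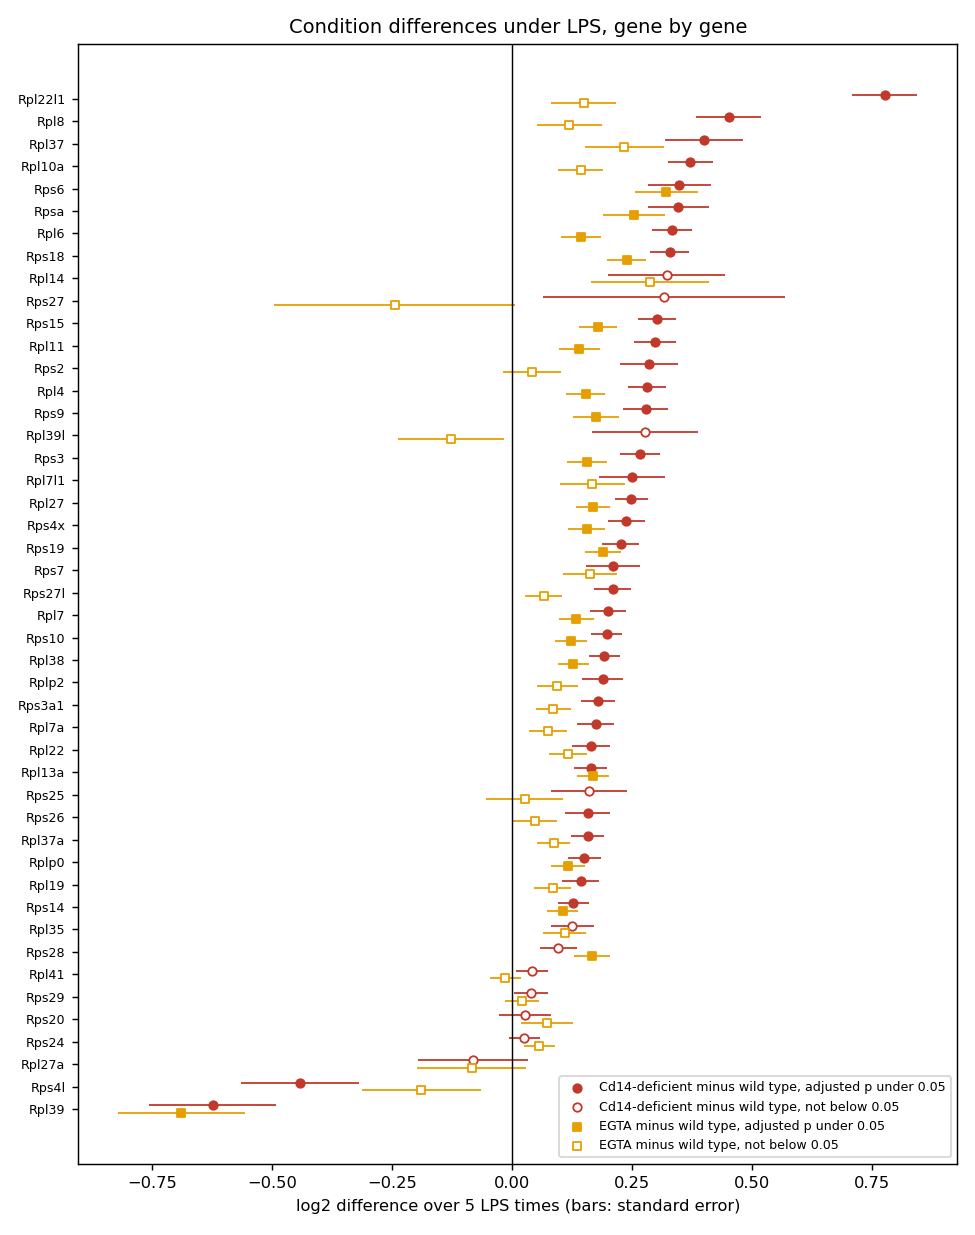
Estimated log2 difference of each gene over the 5 LPS times (x axis) with its standard error, Cd14-deficient minus wild type (circles) and EGTA minus wild type (squares), filled where the adjusted p was under 0.05. Rpl22l1 stands apart at 0.78 in the Cd14-deficient cells, most others lie between 0 and 0.45, and Rpl39, read from its dim probe set, is below 0 in both.

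Rpl22l1, the diverged copy of the large subunit protein Rpl22, showed the largest difference. In Cd14-deficient cells it stood at 11.68, 11.48, 11.37, 11.56 and 11.45 at 2, 4, 6, 12 and 24 h, against 10.99, 10.88, 10.69, 10.69 and 10.40 in wild type. The ranges did not overlap, and the difference of 0.78 ± 0.07 (SE; 1.71-fold, adjusted p = 6.62e-06 from limma) passed the test under each of its 32 alternatives. It was also higher without LPS, with 11.82 in Cd14-deficient cells against 11.17 in wild type, 1 array each. In mouse, Rpl22 is known to hold down Rpl22l1. Rpl22 itself was higher by 0.16 ± 0.04 (adjusted p = 0.0079 from limma). Under its 32 alternatives the Rpl22 difference ran from 0.01 to 0.19, and 4 of them lost the call.

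Among the large subunit proteins, Rpl8 was higher by 0.45 ± 0.07 (adjusted p = 0.000423 from limma). Its levels at 2, 4, 6, 12 and 24 h were 12.81, 12.78, 12.66, 12.61 and 12.50 in Cd14-deficient cells, against 12.61, 12.41, 12.17, 12.04 and 11.88 in wild type. The gap was widest at 24 h. Rpl37 (0.40 ± 0.08), Rpl10a (0.37 ± 0.05), Rpl6 (0.33 ± 0.04) and Rpl11 (0.30 ± 0.04) were also higher. For Rpl37, whose probe set had a mean level of 10.66, a brighter one that also lists Rpl37rt (mean level 12.89) did not pass. It differed by 0.05 (adjusted p = 0.504 from limma). Of the acidic stalk, which recruits elongation factors, Rplp0 was higher by 0.15 ± 0.03 and Rplp2 by 0.19 ± 0.04. Rpl13a was higher by 0.16 ± 0.03 and Rpl38, known for the translation of Hox messages in mouse, by 0.19 ± 0.03.

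Among the small subunit proteins, Rps6, the substrate of the S6 kinases, was higher by 0.35 ± 0.07 (adjusted p = 0.00187 from limma). Its dim probe set read 9.22, 8.95, 8.90, 8.77 and 8.54 in Cd14-deficient cells, against 9.05, 8.58, 8.51, 8.40 and 8.12 in wild type. Both series declined with time, so the ranges overlapped although each time favoured the Cd14-deficient cells. Probe sets that list Rps6 with Rps6-ps4 at mean levels of 13.18 and 13.35 were higher by 0.14 and 0.25. Rpsa, which is also the laminin receptor precursor, was higher by 0.35 ± 0.06, Rps18 by 0.33 ± 0.04, Rps15 by 0.30 ± 0.04, Rps3 by 0.27 ± 0.04 and Rps19, mutated in Diamond-Blackfan anaemia, by 0.23 ± 0.04. The 11 genes that did not pass included Rps29 (0.04 ± 0.04), Rpl41 (0.04 ± 0.03), Rps24 (0.03 ± 0.03), Rps20 (0.03 ± 0.05) and Rps28 (0.10 ± 0.04), each within 1 log2 unit of the ceiling on all arrays. Rpl13a, Rpl38 and Rplp0 were as near the ceiling on all arrays and passed, while the dim Rpl39l did not pass. Another single-gene probe set of Rps28 (mean level 13.18) was higher by 0.15 (adjusted p = 0.008 from limma).

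The genes near the ceiling had a median difference of 0.16 (15 of 21 higher), against 0.28 for the others (18 of 25 higher). Over the 35 genes with a mean level above 12, the Spearman correlation of level with difference was -0.69, a description across genes that share the arrays. The 2 genes that were lower were both dim. Rpl39 read 7.49, 7.22, 7.90, 7.60 and 7.14 in Cd14-deficient cells, against 7.69, 8.29, 8.32, 8.25 and 7.92 in wild type, a difference of -0.62 ± 0.13. A brighter probe set that lists Rpl39 together with Gm32211 (mean level 13.55) did not pass, at 0.10 in Cd14-deficient cells (adjusted p = 0.423 from limma) and 0.06 in EGTA cells (adjusted p = 0.697), each against wild type. Rps4l, a copy of Rps4, differed by -0.44 ± 0.12, and 5.85 to 6.78 in Cd14-deficient cells overlapped with 6.59 to 7.17 in wild type.

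Other probe sets gave a like picture in a comparison chosen after seeing the data. Of 36 further probe sets of single ribosomal protein genes 23 were higher in Cd14-deficient cells, and of 89 that list a ribosomal protein gene with other genes 76 were, while 0 of either kind were lower; 15.9% of all tested probe sets were higher and 12.7% lower. These share transcripts with each other and with the chosen probe sets.

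The size of the shift depended on how arrays were scaled, its place relative to all genes did not. The median difference of the ribosomal protein genes minus that of all tested genes was 0.17 after quantile normalisation, median centring, trimmed-mean scaling and no further scaling alike, while the genes called higher numbered 33, 23, 37 and 4 in that order. Of all 6929 tested genes 1184, 823, 1418 and 301 were called higher in the same order. Without time in the fit 1 ribosomal protein gene was called higher, the differences themselves staying as they were. All tested genes were not counted in that fit. Without LPS, 34 of the 46 were higher in the Cd14-deficient array than in the wild type one, with a median difference of 0.09. Under LPS this median was 0.14, 0.21, 0.19, 0.20 and 0.28 at 2, 4, 6, 12 and 24 h. Whether the difference changed between 2 to 6 h and 12 to 24 h could not be shown: 0 genes passed limma's interaction test, with 6 of 46 at an unadjusted p under 0.05 (13.6% of all tested genes); 0.0433% of all tested genes passed.

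**Figure D3:**
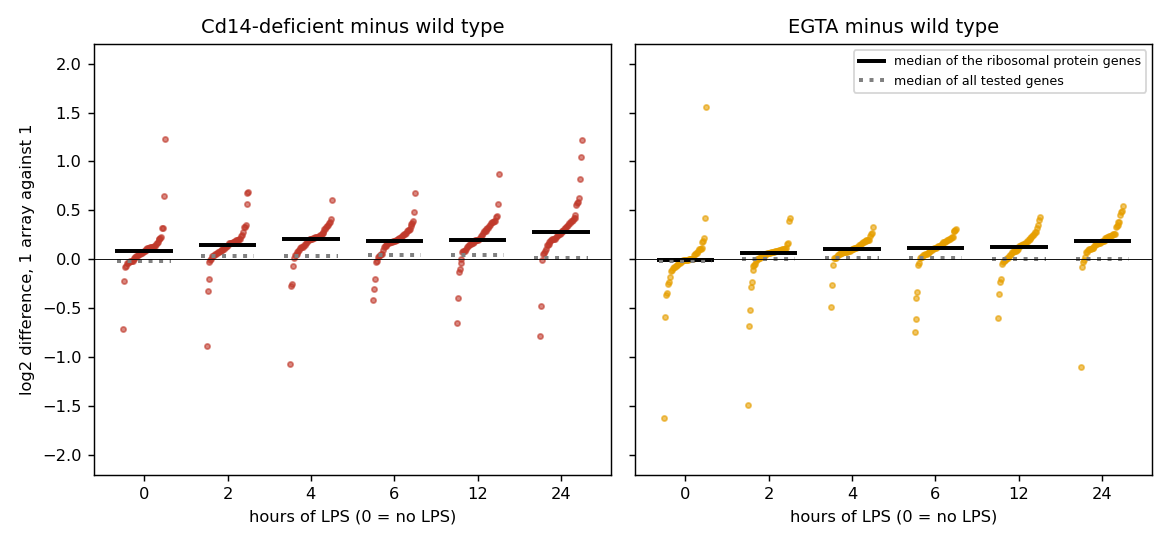
Difference of each of the 46 genes between 1 array and the wild type array of the same time (y axis, log2) without LPS and at 2 to 24 h (x axis), Cd14-deficient on the left and EGTA on the right. Solid bars are the medians of the ribosomal protein genes, 0.28 and 0.18 at 24 h, and dotted bars those of all tested genes.

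Other genes of the translation machinery are set beside 17.1% higher and 12.6% lower of all tested genes. Of the 41 tested ribosome biogenesis factors 27 were higher in Cd14-deficient cells and 0 lower, with a median of 0.36, among them nucleophosmin Npm1 (0.45 ± 0.05), nucleolin Ncl (0.36 ± 0.05), the H/ACA protein Gar1 (0.47 ± 0.07) and Nop16 (0.76 ± 0.11). Initiation factors were higher in 16 of 27, with Eif3i (0.51 ± 0.06) and Eif4b (0.43 ± 0.06), and elongation factors in 4 of 6, with Eef2 (0.38 ± 0.05). Of other messages with a TOP tract 10 of 17 were higher and 1 lower. This list shares genes with the preceding ones, among them Npm1, Eef2, Eef1d and Eif4b, so the counts are not separate. RNA polymerase I, which makes ribosomal RNA, had 3 of 13 genes higher. Of Myc and mTOR regulators 2 of 19 were higher and 3 lower, with Mycn at -0.60 ± 0.09; Myc, a driver of these genes, differed by 0.31 ± 0.21 (adjusted p = 0.28 from limma). Of the genes for ribosome assembly and quality control 2 of 8 were higher and 2 lower, Mdm2 among the lower ones (-0.83 ± 0.14).

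Markers of dividing cells moved as well. Of 19 tested 12 were higher in Cd14-deficient cells under LPS and 0 lower, with summed intensities of 6372 to 18095 in Cd14-deficient cells and 5375 to 13679 in wild type; without LPS the sums were 29566 and 18742. Macrophage markers were lower in 7 of 10 and higher in 1, with sums of 18918 to 30115 in Cd14-deficient cells against 28115 to 38185 in wild type. Granulocyte markers were higher in 5 of 12 and lower in 2, and their sums were 19767 to 36182 and 14640 to 38908. Mast cell and basophil markers were lower in 3 of 4. Dendritic cell markers were higher in 4 of 10. Of all tested genes 17.1% were higher and 12.6% lower. The part of these differences in the ribosomal protein values was not tested, and in bulk cultures fewer cells of a type and less RNA per cell cannot be told apart.

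After quantile normalisation, EGTA was accompanied by a smaller difference of the same kind under LPS. Compared with wild type 19 genes were higher (7.39% of all tested genes were) and 1 was lower, Rpl39 (6.22% were), with a median of 0.12 against 0.01 over all tested genes. The 2 comparisons share the wild type arrays. At all 5 times 29 of 46 were higher, as were 15.3% of all tested genes. Of the large subunit genes 8 of 21 were higher, of the small subunit genes 11 of 20, and of the 5 diverged copies 0.

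On its dim probe set, Rps6 showed the largest rise with EGTA that passed, with 9.14, 8.91, 8.80, 8.75 and 8.66 in EGTA cells against the wild type values above (0.32 ± 0.07, adjusted p = 0.00696 from limma). The probe sets shared with Rps6-ps4 at mean levels of 13.18 and 13.35 differed by 0.03 and 0.17 (adjusted p = 0.645 and 0.00903 from limma). Rpsa differed by 0.25 ± 0.06, Rps18 by 0.24 ± 0.04, Rps19 by 0.19 ± 0.04, Rps15 by 0.18 ± 0.04 and Rpl13a by 0.17 ± 0.03. Rpl22l1 did not pass in EGTA cells, at 11.15, 10.97, 10.80, 10.69 and 10.78 (0.15 ± 0.07, adjusted p = 0.172 from limma). Rpl39 was at 7.17, 7.80, 7.58, 7.65 and 6.82 on its dim probe set (-0.69 ± 0.13), a fall that the brighter one named above did not show. The median difference was -0.01 on the unstimulated arrays and 0.06, 0.10, 0.12, 0.12 and 0.18 at 2, 4, 6, 12 and 24 h.

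The EGTA count moved between 6 and 20 when single arrays were left out, the Cd14-deficient one between 32 and 34. The EGTA count was 3 after median centring, 5 without further scaling or with the trimmed mean, 6 with the RNA integrity number as a covariate, 2 without the 12 and 24 h arrays, and 0 without time in the fit. Of all 6929 tested genes 524 were higher after median centring, 469 without further scaling and 602 with the trimmed mean. All tested genes were not counted with the covariate, without time in the fit, or with arrays left out. A loss of calls common to all genes cannot be told apart there. Leaving out 1 wild type array gave 10, 12, 6 and 9 genes (4, 6, 12 and 24 h), and leaving out 1 EGTA array gave 12, 6, 10 and 11 (the same times). The median relative to all genes was 0.11 after quantile normalisation and 0.05 under the other 3 scalings. Of the dividing cell markers 0 of 19 passed in either direction (limma), with 1 at an unadjusted p under 0.05 (28.1% of all tested genes). Of the ribosome biogenesis genes 2 of 41 were higher and 1 lower.

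Set directly against EGTA cells, Cd14-deficient cells had 10 genes higher and 0 lower (16.8% and 14.4% of all tested genes), with a median of 0.08 against 0.03 over all tested genes. Rpl22l1 (0.63 ± 0.07, adjusted p = 2.88e-05 from limma), Rpl39l (0.40 ± 0.11), Rpl8 (0.33 ± 0.07), Rps2 (0.24 ± 0.06), Rpl10a (0.23 ± 0.05), Rpl6 (0.19 ± 0.04), Rpl11 (0.16 ± 0.04) and Rps27l (0.14 ± 0.04) had the largest of these differences. Of the diverged copies 3 of 5 were higher, and of the subunit genes 7 of 41. Without further scaling the median was -0.06. Of ribosome biogenesis genes 29 of 41 were higher in this comparison.

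Late in LPS most ribosomal protein messages were lower than early. Averaged over the 3 conditions, 33 of 46 were lower at 12 and 24 h than at 2, 4 and 6 h and 2 were higher, against 24% and 33% of all tested genes. The median difference was -0.14, while that of all tested genes was 0.05. The fall covered 15 of 21 large and 17 of 20 small subunit genes.

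Rpsa fell by 0.34 on the log2 scale (SE 0.05, adjusted p = 0.000127 from limma). At 2, 4, 6, 12 and 24 h it stood at 13.28, 13.20, 12.82, 12.83 and 12.97 in Cd14-deficient cells, at 13.18, 13.12, 12.93, 12.81 and 12.60 in EGTA cells, and at 13.09, 12.85, 12.64, 12.38 and 12.41 in wild type. Rps6 and Rpl14 each fell by 0.36, Rpl8 by 0.33, Rps3 by 0.28, Rps25 by 0.27, Rps7 by 0.26 and Rpl10a by 0.26. The value of Rps6 came from its dim probe set. Those shared with Rps6-ps4 at mean levels of 13.18 and 13.35 differed by -0.08 and -0.12. Rpl7a (-0.01 ± 0.03), Rpl19 (0.00 ± 0.03) and Rpl41 (-0.03 ± 0.03) did not pass.

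Rps27l rose while most others fell. This copy of Rps27 is a p53 target. It stood at 13.00 and 13.09 at 12 and 24 h in Cd14-deficient cells, against 12.44, 12.66 and 12.71 at 2, 4 and 6 h. In EGTA cells it stood at 12.84 and 12.97 late, against 12.38, 12.47 and 12.51 early, and in wild type at 12.83 and 12.80 late, against 12.32, 12.44 and 12.46 early. Late and early values did not overlap within any condition, and the difference was 0.44 ± 0.03 (adjusted p = 3.44e-07 from limma). Rps27 itself, read from a dim probe set, differed by -0.22 ± 0.21 (adjusted p = 0.394 from limma). Rpl39l, a copy of Rpl39 known from the testis, rose by 0.30 ± 0.09 from a low level, and its adjusted p was 0.0145 (limma).

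**Figure D4:**
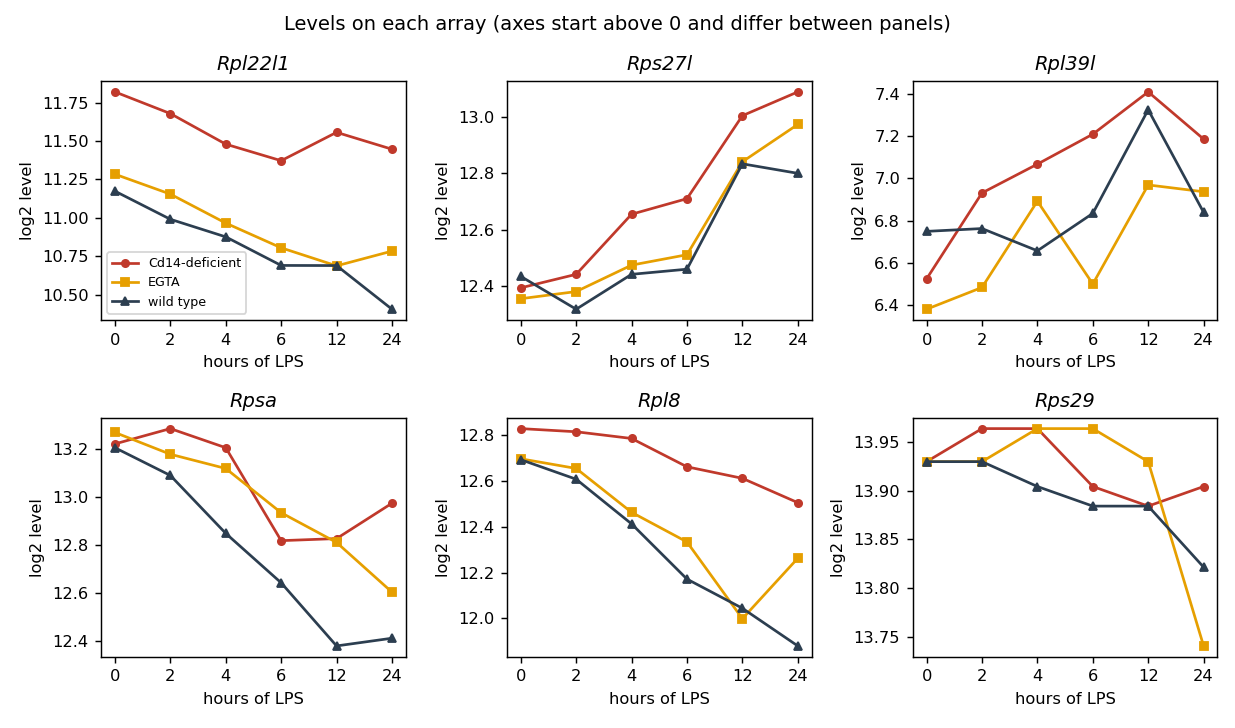
Level of 6 genes on each array (y axis, log2) against hours of LPS (x axis, evenly spaced), with 1 line for each condition. Rpl22l1 is highest in Cd14-deficient cells at every time, Rps27l climbs in all conditions, Rpsa and Rpl8 decline, and Rps29 near the ceiling stays between 13.74 and 13.96.

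The direction of the late difference held under the 4 scalings run. The genes called lower numbered 33 with quantile normalisation, 39 with median centring, 34 with no further scaling and 35 with the trimmed mean, and the median relative to all genes was -0.19 with the first and -0.31 with each of the others. Of all tested genes 1663, 2147, 1270 and 1491 were called lower under these scalings in the order named. Without the 2 h arrays 19 ribosomal protein genes were called lower, a setting in which all tested genes were not counted. Of the further probe sets, 21 of 36 of single ribosomal protein genes and 61 of 89 that list other genes too were lower late, against 26.2% of all tested probe sets. Elongation factors were lower in 3 of 6 and higher in 1, initiation factors lower in 4 of 27 and higher in 11, and ribosome biogenesis genes lower in 11 of 41 and higher in 7, where 24% of all tested genes were lower and 33% higher. Markers of dividing cells were lower in 15 of 19 and granulocyte markers in 11 of 12; their part in the ribosomal protein values was not tested.

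Against cells without LPS the direction rested on the scaling. After quantile normalisation 34 genes were lower and 4 higher in the mean of the 5 times, against 34.7% and 27.3% of all 7056 tested genes, and the medians at 2, 4, 6, 12 and 24 h were -0.04, -0.13, -0.20, -0.27 and -0.28. Median centring gave 18 genes higher and 2 lower, where 2439 of all tested genes were higher and 1514 lower. The trimmed mean gave 2 higher and 18 lower, where 1583 and 2892 of all tested genes were. No further scaling gave 2 higher and 36 lower, where 921 and 3707 of all tested genes were. Relative to all genes, the median at 2 h was 0.04 after quantile normalisation and 0.25, 0.25 and 0.26 under the others, and in the mean of the times -0.13 against 0.07, 0.07 and 0.08. At 24 h it was below all genes under each of the 4 scalings, from -0.29 to -0.18. The no-LPS arrays were harvested 24 h after plating, so time in culture matched the 24 h arrays at most.

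**Figure D5:**
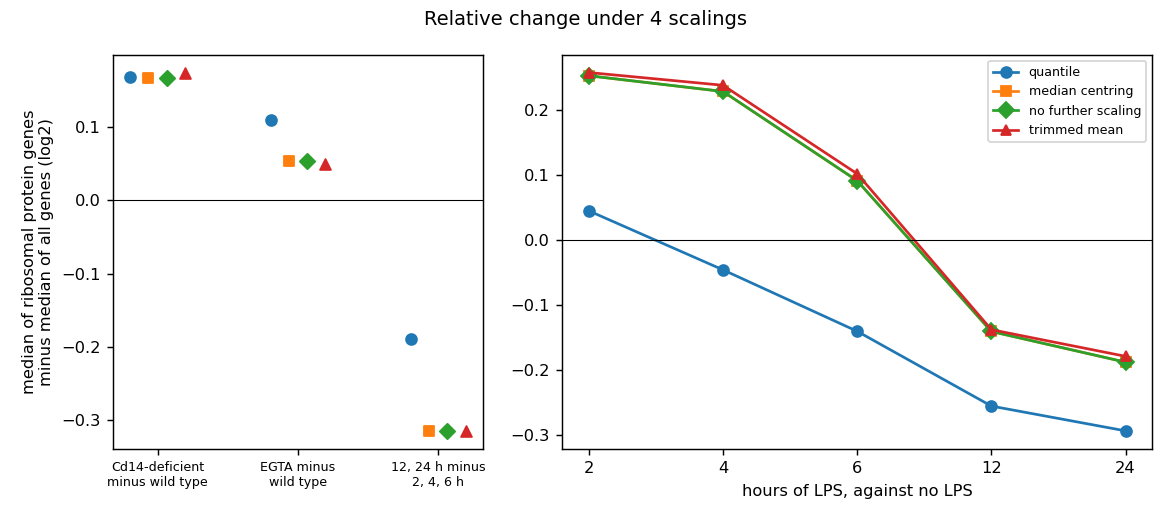
Median difference of the ribosomal protein genes minus that of all tested genes (y axis, log2) under 4 scalings of the arrays, for the condition and late differences on the left and for each LPS time against no LPS on the right. Median centring and no further scaling coincide. The Cd14-deficient difference stays at 0.17, and the LPS difference is positive at 2 h, from 0.04 to 0.26, and below 0 at 12 and 24 h.

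At 24 h of LPS against none, 35 genes were lower and 3 higher after quantile normalisation, against 25.8% and 26.5% of all tested genes. Median centring gave 12 lower and 4 higher, the trimmed mean 26 and 2, and no further scaling 39 and 1. Over all 7056 tested genes, median centring gave 1287 lower and 1995 higher. The trimmed mean gave 1919 and 1609 of them, and no further scaling 2792 and 728. Rps6, on its dim probe set, fell by 0.69 (SE 0.09), Rpl10a by 0.64 (SE 0.06), Rpsa by 0.57 (SE 0.09), Rpl22l1 by 0.55 (SE 0.09), Rpl8 by 0.52 (SE 0.09) and Rps7 by 0.52 (SE 0.07). Each passed limma's test. Rps27l was higher by 0.56 ± 0.06, Rpl39l by 0.44 ± 0.16 and Rps4l by 0.72 ± 0.27, the last read near the bottom of the scale. Within each condition the median at 24 h was -0.25 in Cd14-deficient, -0.23 in EGTA and -0.42 in wild type cells, 1 array against 1. The LPS response was tested for a difference between conditions in limma: against wild type, Rpl39 alone passed in Cd14-deficient cells (0.156% of all tested genes did) and Rpl39, Rps9 and Rps4l passed in EGTA cells (1.66% did), with 6 and 8 of the 46 genes at an unadjusted p under 0.05 (8.55% and 15% of all tested genes). In the mean of the LPS times Myc fell by 1.68 on the log2 scale, while Mycn rose by 1.19 ± 0.11. Their part in the ribosomal protein values was not tested.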

How the data were processed

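RNA of bone marrow-derived dendritic cells was hybridised to 18 Affymetrix arrays of 22690 probe sets. The deposited values are linear intensity values, made by the authors with MAS5 per the submitters' processing notes; version and scaling target: not given in the sources used here. Probe sets were named through the array's annotation: 20393 had 1 gene, 691 several and 1606 none.

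Values were quantile-normalised as log2(intensity + 16). A gene was tested when above the array's median over genes on at least 2 fitted arrays. Conditions, and late against early LPS, were fitted over the 15 LPS arrays with time as a block (8 residual degrees of freedom), and LPS over the 18 arrays, blocked by condition (10), in limma 3.58.1 (R 4.3.3, eBayes with trend, Benjamini-Hochberg adjustment). The fits were tested on simulated data. The time block pairs arrays of the same hour, per the labels.

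Members and gene lists were chosen with earlier results of these data known. Named genes are the 8 largest called rises and falls of a comparison, the 5 brightest members, listed diverged copies and members of known function, and up to 4 genes of each other list. Alternatives were other scalings, pseudocounts of 1 and 64, no filter, the mean of probe sets, other fits, and leaving out arrays or times.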

Additional observations from a re-analysis of the deposited data

Results flagged for a closer look

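The scan covered 90 sets of 5 LPS arrays, each the values of 1 named ribosomal protein gene or of the median in 1 condition. In 3 of them an array lay far from the other 4. Chance gives about 1 in 20 for replicates. These sets were successive LPS times and share arrays, so that rate is a rough guide only. The bright Rps29, Rps28 and Rps20 and the genes of the other lists were not examined in this way. Rps2, a small subunit protein, stood at 13.69 in Cd14-deficient cells at 2 h, while the other 4 arrays lay between 13.14 and 13.18. Rpl39l stood at 7.32 in wild type cells at 12 h, against 6.66 to 6.84 at the other times. Rpl27, a large subunit protein, stood at 12.77 in wild type cells at 2 h, against 12.53 to 12.57 later.

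In 4 cases the LPS response differed between a condition and wild type by limma's interaction test. The response of Rpl39, read from a dim probe set, differed by -1.85 in Cd14-deficient cells and by -2.24 in EGTA cells (adjusted p = 0.0471 and 0.00593): without LPS it read 7.75 in Cd14-deficient cells and 8.07 in EGTA cells, against 6.52 in wild type. Rps4l differed by 1.43 and Rps9 by 0.52 in EGTA cells (adjusted p = 0.0446 each). Without LPS, Rps4l read 4.86 in EGTA cells and 6.48 in wild type, and Rps9 12.34 in EGTA cells and 12.69 in wild type. These tests rest on 1 unstimulated array per condition.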

How the results depend on the processing

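Each count below is of genes that passed limma's test at an adjusted p under 0.05. Beside the main results, all tested genes were counted for the scalings and the probe sets alone. Under the other settings a loss of calls common to all genes cannot be told apart. For Cd14-deficient against wild type, 33 genes were higher and 2 lower: no further scaling gave 4 higher and a median of 0.10, and leaving out the genes near the ceiling gave 18 of 25 with a median of 0.28. Without the replicate block, that is with time not in the fit, 1 was higher and 0 lower. Without the 2 h, the 4 h, the 12 h, or the 12 and 24 h arrays 1 was lower, and 1 to 2 when single arrays were left out. For EGTA against wild type, 19 were higher and 1 lower: median centring gave 3 higher with a median of 0.078, no further scaling 5, the trimmed mean 5, no filter 7, eBayes without the trend 7, the RNA integrity number as a covariate 6, and the genes away from the ceiling 9. Without the replicate block 0 were higher and 0 lower. Without the 4, 6, 12 or 24 h arrays 4, 3, 4 and 9 were higher, without both 12 and 24 h 2 were higher and 0 lower, and single arrays left out gave 6 to 20. For Cd14-deficient against EGTA, 10 were higher and 0 lower: median centring gave 6, no further scaling 1 higher and 2 lower with a median of -0.061 (Rpl11 -0.0039), the trimmed mean 22 with a median of 0.15, no replicate block 1, and leaving out the 4, 6, 12, or 12 and 24 h arrays 6, 5, 6 and 6. Of all 6929 tested genes 752 were higher with median centring and 1184 with the trimmed mean. With no further scaling 262 of them were higher and 1912 lower. Single arrays left out gave medians of 0.067 to 0.086. For late against early LPS, 33 were lower and 2 higher: the median was -0.33 with median centring, -0.22 with no further scaling, -0.21 with the trimmed mean and -0.18 without the 6 h arrays. Without the 2 h arrays 19 were lower and 1 higher, without the 12 h arrays 1 was higher, and single arrays left out gave 1 to 2 higher. With the mean of a gene's probe sets, Rpl13a was at 0.021 and Rpl22 at 0.13. For LPS against none, 34 were lower and 4 higher: median centring gave 18 higher and 2 lower with a median of 0.16, no further scaling 2 higher, the trimmed mean 2 higher and 18 lower with a median of -0.051, the genes away from the ceiling 18 lower with a median of -0.28, leaving out the 4 h or 12 h arrays 2 higher, and single arrays 2 to 4 higher. With median centring Rpl11 was at 0.023, Rpl13a 0.11, Rpl38 0.17, Rplp0 0.17, Rplp2 0.17, Rps19 0.17 and Rps3 0.063; with no further scaling Rpl27a was at -0.043 and Rpl39l at -0.035. Medians at 2, 4 and 6 h were 0.36, 0.32 and 0.17 with median centring and 0.080 and 0.046 at 2 and 4 h with the trimmed mean; the 2 h median lay between -0.066 and 0.0013 with single arrays left out. Relative to all genes, the medians at 4 and 6 h were 0.23 and 0.091 with median centring or no further scaling and 0.24 and 0.10 with the trimmed mean, and over all times 0.073, 0.073 and 0.082. For the LPS response, the 1 lower gene in Cd14-deficient cells was 0 with a pseudocount of 64, no filter, eBayes without the trend, or without the 6 h or 12 h arrays, and 0 to 1 with single arrays left out. The 2 higher genes in EGTA cells were 20 with median centring, 0 with no further scaling, the trimmed mean, a pseudocount of 64, no filter, or without the 4, 6 or 12 h arrays, 1 with eBayes without the trend or without the 24 h arrays, and 0 to 2 with single arrays left out. With median centring 702 of all 7056 tested genes were higher in the EGTA response. The response could not be fitted without the unstimulated array of either condition compared. By probe sets, an alternative added after seeing the data, those that list other genes too gave 76 of 89 higher in Cd14-deficient cells, 40 of 89 higher in EGTA cells and 61 of 89 lower late, and 21 of 36 other single-gene ones were lower late; these counts have other totals than 46. The causes were not tested. Among 3099 repeats of the tests of named ribosomal protein genes, 2807 kept direction and side of the threshold, 272 lost and 8 gained a call, and 12 turned. The bright Rps29, Rps28 and Rps20 and the genes of the other lists were not in this tally.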

Other observations

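The 46 tested ribosomal protein genes took 3.50 to 5.01% of an array's intensity summed over the chosen probe sets of all 12394 genes. Probe sets that list several genes were in neither sum. The share was 4.69% in Cd14-deficient, 4.53% in EGTA and 4.59% in wild type cells without LPS. At 24 h of LPS it was 4.29% in Cd14-deficient, 3.94% in EGTA and 3.50% in wild type cells. Eef2, the factor that moves the ribosome along the message, was higher in EGTA cells too (0.33 ± 0.05, adjusted p = 0.00206 from limma), and Mdm2 was lower in them (-0.80 ± 0.14). Eif4a2 rose late in LPS by 1.00 ± 0.07, and Larp1, which binds TOP messages, fell from early to late LPS by 0.45 on the log2 scale. In the mean of the LPS times, Larp1 was higher than without LPS by 0.77 ± 0.07 after quantile normalisation. Erythroid and B16 melanoma markers had 1 tested gene each.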
